A study of Drosophila melanogaster with 40 samples.

Results

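Peptidoglycan recognition proteins (PGRPs) and the feedback protein pirk were followed in legs of male Drosophila melanogaster. The set held 10 genes, chosen by symbol: PGRP-SA, PGRP-SD, PGRP-SB1, PGRP-SC1a, PGRP-SC2, PGRP-LB, PGRP-LC, PGRP-LE, PGRP-LF and pirk. All 10 were found among the 23932 features of the deposited table of read counts. The series compared 2 strains, Hsp70- and w1118. Hsp70- flies carry the deficiencies Df(3R)Hsp70A and Df(3R)Hsp70B in a w1118 background, labelled as a knockout of 6 Hsp70 heat shock genes, and both strains carry the w1118 allele of white. Legs of each strain were taken at day 7 after a single bout of 2 h of exercise, at day 7 without exercise, at day 23 after 19 days of training, at day 23 without training, and at day 47. Training ran from day 4 to day 22 in tubes that a device turned over at intervals of 15 s, and trained flies were sampled 24 h after the last session. There were 4 pools in each of the 10 groups, each with the legs of 15 flies and sequenced as 1 RNA-seq library, 40 libraries in all. The strains came from different stock collections, so the deletions and the rest of the genetic background cannot be told apart.

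PGRPs bind peptidoglycan of bacterial cell walls. In flies, PGRP-LC at the cell surface and PGRP-LE inside the cell start the IMD pathway, which ends in the NF-kB factor Relish (Rel), while the secreted PGRP-SA and PGRP-SD act upstream of the Toll pathway. Several PGRPs are amidases that cut peptidoglycan, and PGRP-LB, PGRP-LF and pirk are known as brakes on IMD signalling, with PGRP-LB and pirk themselves transcribed in response to it.

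Libraries held 21955858 to 29215993 counts for day 7, 22329878 to 30076080 counts for day 23 and 35144736 to 39313671 counts for day 47. Of the deleted genes, the 5 other than Hsp70Bb had 11 reads in the 20 Hsp70- libraries, against 1748 in the 20 w1118 libraries, and Hsp70Bb had 1283 reads in Hsp70- against 1149 in w1118. The reads of Hsp70Bb go against its labelled deletion, and the reason was not tested. The 10 muscle markers summed to 14190 to 31063 CPM (read counts scaled to a common library size) and the 3 markers of male legs to 162 to 538 CPM. Summed levels of 24 midgut markers spread from 63.6 to 27820 CPM, and 16 of the 24 had a median of at least 1 CPM. Summed testis markers exceeded 200 CPM in 3 libraries (Hsp70- at day 7, pool 2, with 877 CPM, exercised w1118 at day 7, pool 1, with 319.8 CPM, and trained w1118 at day 23, pool 1, with 252 CPM) and reached at most 27.3 CPM in the others. In RNA from whole legs, fewer cells of a type and less RNA per cell cannot be told apart. P-values measure the spread between pools only.

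Relative to exon length, the secreted proteins spanned the whole range of levels. Median levels over the 40 libraries were 137 CPM per kilobase for PGRP-SB1, 110.2 for PGRP-SD and 41.8 for PGRP-SC2. The receptor PGRP-LC stood at 31.9 CPM per kilobase and PGRP-LF at 26.0, followed by PGRP-LB at 15.1, PGRP-SA at 14.1, pirk at 13.9 and PGRP-LE at 8.79. All neighbours in this order had overlapping ranges, so it is not firm. PGRP-SB1, for example, ran from 33.4 to 579 CPM per kilobase and PGRP-SD from 30.1 to 244, and PGRP-LC ran from 22.3 to 52.3 and PGRP-LF from 12.8 to 43.6. PGRP-SC1a was at 0 counts in 20 of the 40 libraries and at 3 counts or fewer in 27. The genes also differed in how much they varied: where reads were found in every library, the highest library exceeded the lowest 1.85-fold for PGRP-LE and 2.35-fold for PGRP-LC, but 17.3-fold for PGRP-SB1 and 163-fold for PGRP-SC2.

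**Figure D1:**
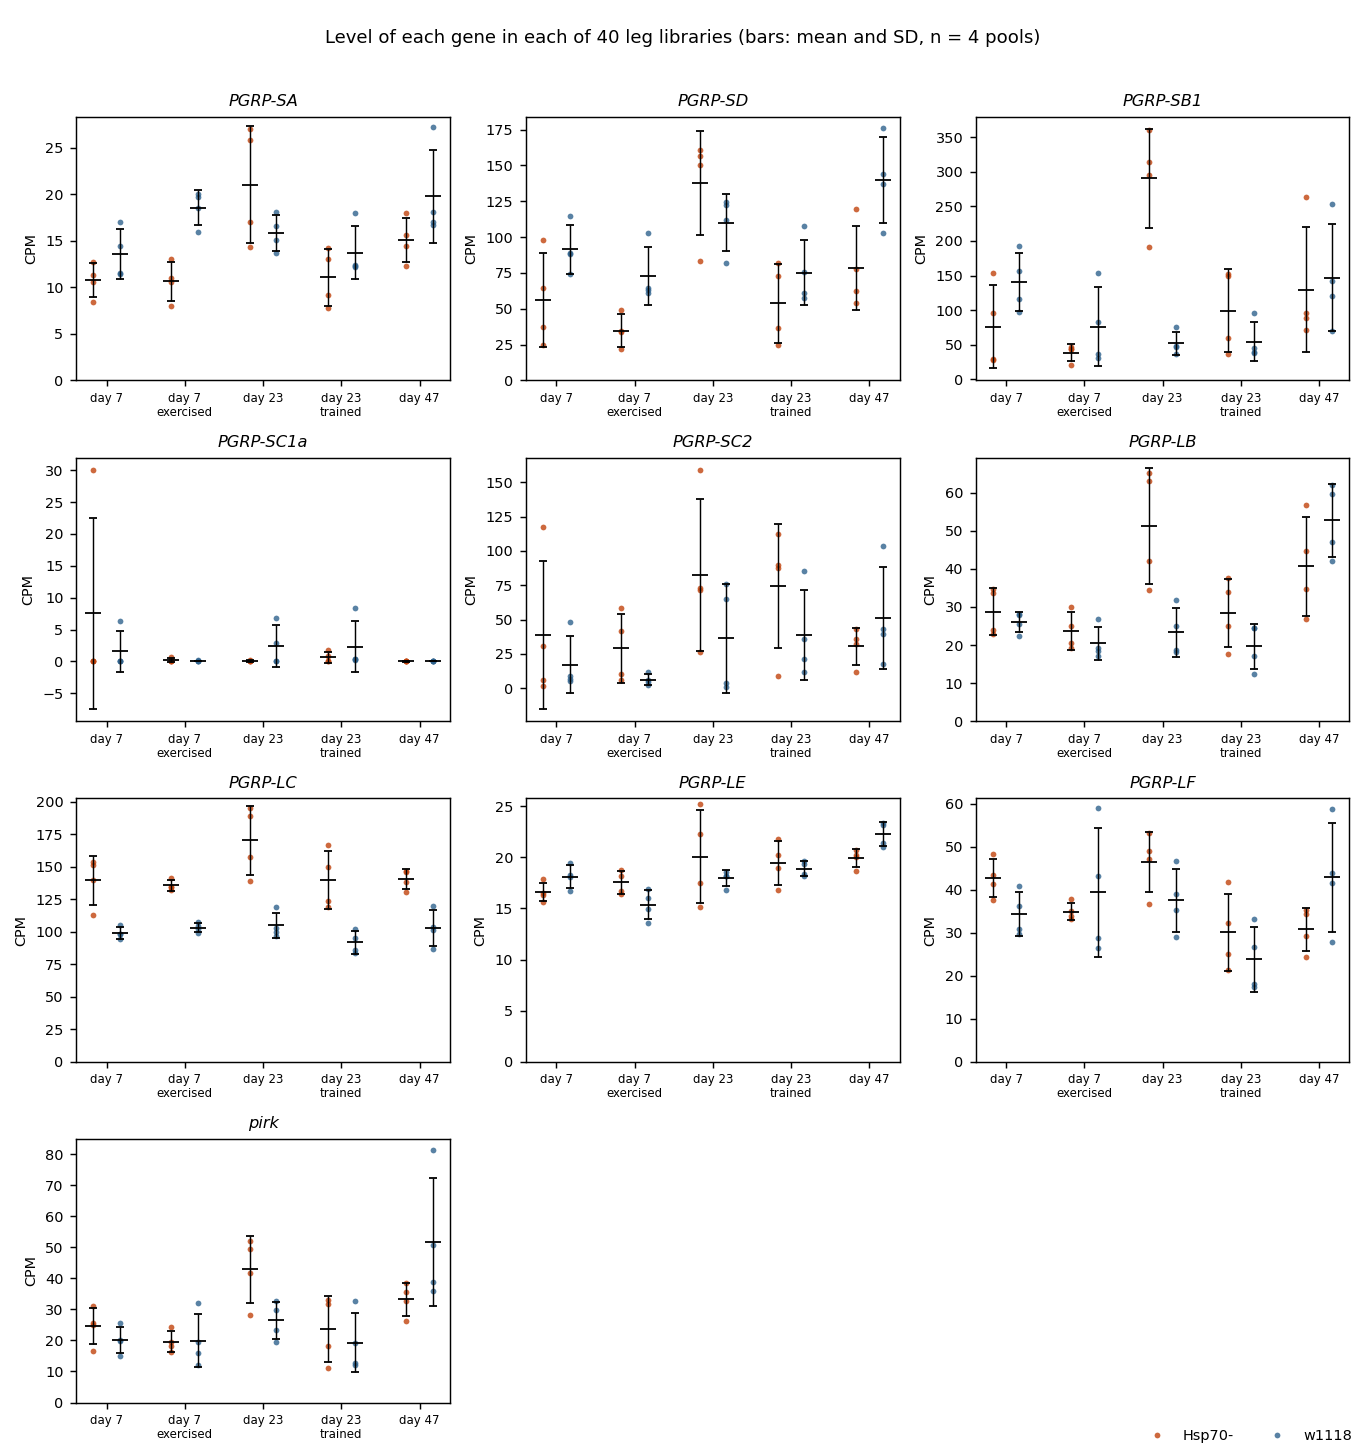
Level of each gene in CPM (vertical axis, linear) in each library, with Hsp70- (orange) left of w1118 (blue) at each age and treatment. Points are pools and black bars are the mean and SD of 4 pools. PGRP-LC is higher in every Hsp70- pool than in every w1118 pool of the same age and treatment, and PGRP-SB1 reaches 191 to 361 CPM in untrained Hsp70- legs at day 23, against 37.2 to 76.3 CPM in w1118.

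The first question was how the strains differ. An edgeR quasi-likelihood test was run over 12939 features, and a gene was called at a Benjamini-Hochberg adjusted p under 0.05. PGRP-LC was called higher in Hsp70- under all 5 ages and treatments, and the other calls depended on age or treatment. At day 7, 1 of the 10 genes was called (25.8% of all tested features were called). At day 23, 3 were called higher and 0 lower, PGRP-SB1, PGRP-LB and PGRP-LC (17.8% of features called, 8.78% higher). At day 47, 1 was called (19.4% of features). Among exercised flies, 1 was called higher and 2 lower (20.2% of features), and among trained flies, 1 higher (15.6% of features). Read against those background shares, none of the 5 counts stands as a result about the set as a whole. At day 23, 9 of the 10 log2 differences were positive with a median of 0.55, against a median of -0.01 over all features.

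**Figure D2:**
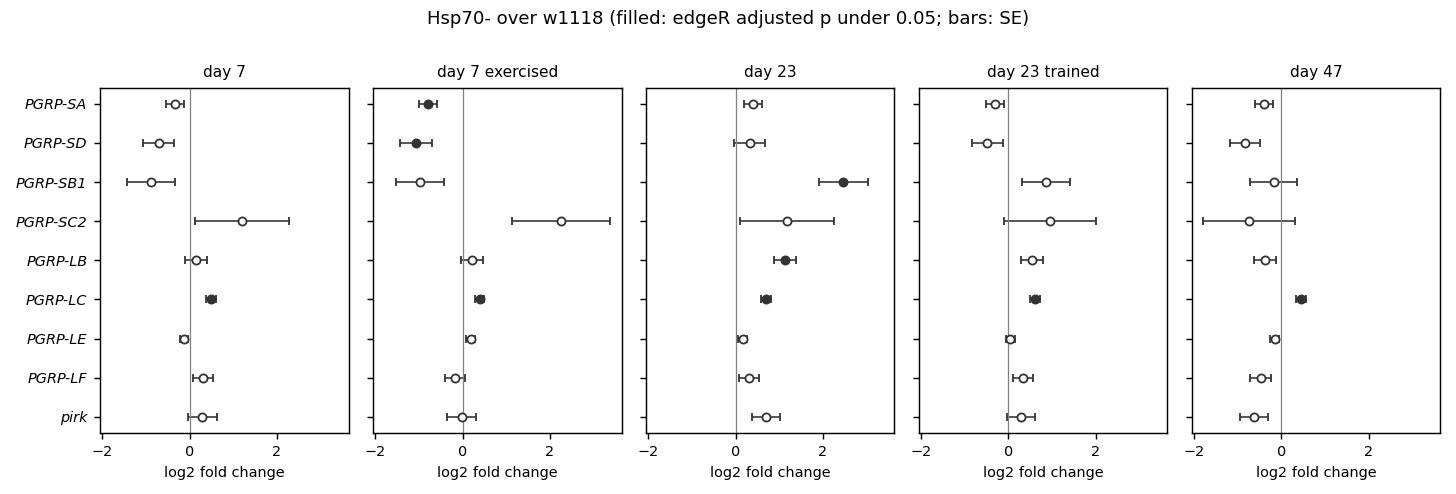
Log2 fold change of Hsp70- over w1118 (horizontal axis, 1 scale for all panels) with its SE for 9 genes, by age and treatment. Filled points have an edgeR adjusted p under 0.05. PGRP-SC1a is left out because it was at 0 counts in 20 of 40 libraries. PGRP-LC lies between 0.39 and 0.70 throughout, whereas PGRP-SB1 and PGRP-LB are called at day 23 only.

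PGRP-LC, the transmembrane receptor that opens the IMD pathway, lies on 3L at 9338810 to 9348336, plus strand (BDGP6.54). At day 23 it had 157.7, 139, 189 and 196 CPM in the 4 Hsp70- pools, against 97.1, 103, 119 and 100.2 CPM in the 4 w1118 pools. At day 7 it had 140.3, 113, 154 and 151 CPM in Hsp70-, against 98.7, 105, 94.4 and 98.0 CPM in w1118. At day 47 the values were 147, 131, 139 and 146 CPM in Hsp70- and 104, 120.1, 102 and 86.7 CPM in w1118. The pools of the strains did not overlap at any of the ages. Nor did they overlap after exercise, with a mean of 136 ± 4.14 CPM in Hsp70- and 103 ± 3.61 CPM in w1118 (SD, n = 4 each), or after training, with 139.8 ± 22.4 and 91.9 ± 8.72 CPM in Hsp70- and w1118. The log2 fold changes were, at day 7, 0.49 (SE 0.11, edgeR adjusted p = 0.000983), 0.39 (SE 0.11, adjusted p = 0.00848) with exercise, 0.70 (SE 0.11, adjusted p = 9.24e-06) at day 23, 0.61 (SE 0.11, adjusted p = 8.49e-05) with training and 0.45 (SE 0.11, adjusted p = 0.00241) at day 47.

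The neighbouring genes did not all share this difference. PGRP-LA, whose annotated end lies 473 bases before the start of PGRP-LC on the same strand, was also called higher in Hsp70- in each of the 5 comparisons. At day 23 PGRP-LA averaged 51.6 ± 4.62 CPM in Hsp70- and 35.0 ± 4.98 CPM in w1118 (SD, n = 4 each), and its log2 fold changes ran from 0.41 to 0.62. PGRP-LF starts 1272 bases after the end of PGRP-LC and encodes a membrane protein that binds PGRP-LC and lacks its signalling part. It was called in none of the 5 comparisons by edgeR, and its log2 fold changes lay between -0.48 and 0.34. Its pools overlapped in all 5, with 49.1, 36.6, 47.2 and 53.1 CPM in Hsp70- and 29.1, 35.2, 46.7 and 39.1 CPM in w1118 at day 23. Of the 1355 exon bases of PGRP-LF, 602 lie opposite exons of UGP, a gene with a median of 467 CPM, and the strand setting of the counting was not given in the sources used here. Spearman's rho between the levels of PGRP-LF and UGP over the 40 libraries was 0.08.

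**Figure D3:**
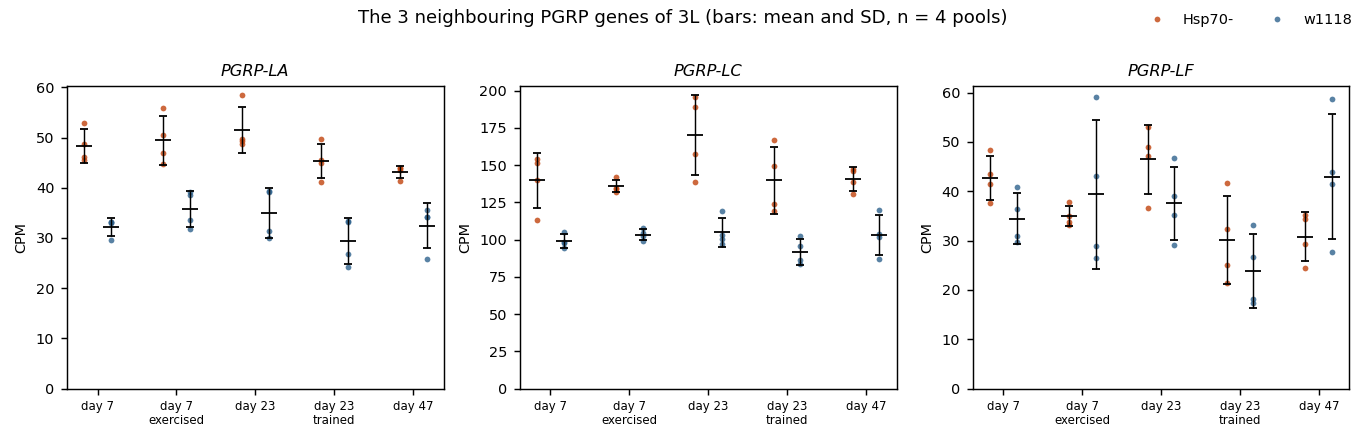
Levels in CPM (vertical axes, linear) of PGRP-LA, PGRP-LC and PGRP-LF, which follow each other on 3L, in Hsp70- (orange, left) and w1118 (blue, right) pools; bars are the mean and SD of 4 pools. The strains separate in every panel position for PGRP-LA and PGRP-LC and overlap in every position for PGRP-LF.

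Summed marker levels moved with strain as well. The 3 male leg markers summed to 385 to 538 CPM in Hsp70-, against 237 to 343 CPM in w1118, at day 7. At day 23 their sums overlapped between strains, with 291 to 503 CPM in Hsp70- and 233 to 299 CPM in w1118, and at day 47 they were 334 to 459 CPM in Hsp70-, against 162 to 266 CPM in w1118. Over the 40 libraries, Spearman's rho between PGRP-LC and that sum was 0.76, and 0.48 with the sum of 7 hemocyte markers, where libraries of a group share strain and age. Hemocyte markers summed to 785 to 1165 CPM in Hsp70- and 737 to 891 CPM in w1118 at day 23. Muscle markers summed to 19751 to 24366 CPM in Hsp70- and 14190 to 15363 CPM in w1118 at day 47, without overlap. The part of these sums in the PGRP-LC difference was not tested.

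PGRP-SB1, a secreted amidase (3L, 16727299 to 16727989, minus strand), gave the largest strain difference of the genes called at day 23. It had 295, 191, 314 and 361 CPM in the Hsp70- pools, against 37.2, 47.8, 76.3 and 47.5 CPM in the w1118 pools. The lowest Hsp70- pool exceeded the highest w1118 pool. The log2 fold change was 2.48 (SE 0.57, edgeR adjusted p = 0.00178). At day 7 the pools were 28.9, 27.8, 95.4 and 154 CPM in Hsp70- and 156, 98.0, 193 and 116 CPM in w1118, which overlap (log2 fold change -0.88, SE 0.54, adjusted p = 0.246). At day 47 they overlapped again, with 71.4, 95.95, 88.1 and 264 CPM in Hsp70- and 142, 120.7, 70.7 and 254 CPM in w1118. Trained legs had 60.2, 36.1, 149 and 152 CPM in Hsp70- and 39.2, 38.7, 96.2 and 44.9 CPM in w1118, again overlapping.

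PGRP-LB, an amidase that lowers IMD signalling by degrading peptidoglycan, lies on 3R at 11452849 to 11460552, minus strand, with its end 493.6 kb from the start of Hsp70Aa. At day 23 it had 34.4, 42.1, 63.1 and 65.3 CPM in Hsp70-, against 24.9, 18.2, 31.7 and 18.6 CPM in w1118, without overlap (log2 fold change 1.13, SE 0.26, edgeR adjusted p = 0.0016). Levels at day 7 were 33.6, 22.9, 34.7 and 24.0 CPM in Hsp70- and 25.4, 28.2, 22.5 and 27.9 CPM in w1118. At day 47 they were 26.8, 34.6, 56.8 and 44.7 CPM in Hsp70- and 47.0, 59.6, 42.2 and 62.2 CPM in w1118. Both of these pairs of groups overlapped, and the log2 fold changes of 0.15 at day 7 and -0.37 at day 47 were not called. pirk, an intracellular protein that holds back IMD receptors, had 49.5, 28.1, 41.7 and 52.1 CPM in Hsp70- and 23.4, 19.6, 29.9 and 32.9 CPM in w1118 at day 23. Its log2 fold change of 0.70 (SE 0.33) was not called (edgeR adjusted p = 0.154). Midgut markers summed to 897 to 10655 CPM in Hsp70- and 412 to 6117 CPM in w1118 at day 23, and with the log midgut sum as a covariate, an alternative added after the data were seen, PGRP-SB1, PGRP-LB and PGRP-LC were still called.

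The secreted recognition proteins PGRP-SA (X, 11561643 to 11562779, plus strand) and PGRP-SD (3L, 7651180 to 7651900, plus strand) were lower in Hsp70- after exercise. PGRP-SA had 8.0, 11, 13.0 and 10.6 CPM in exercised Hsp70- legs and 19.7, 16.0, 20.1 and 18.5 CPM in exercised w1118 legs. PGRP-SD had 21.7, 33.8, 49.3 and 34.2 CPM in exercised Hsp70- legs and 103, 60.9, 64.5 and 62.8 CPM in exercised w1118 legs. Neither gene's pools overlapped. The log2 fold changes were -0.80 (SE 0.21, edgeR adjusted p = 0.00586) for PGRP-SA and -1.07 (SE 0.36, adjusted p = 0.0331) for PGRP-SD. PGRP-SD lost its call without the 3 libraries that had testis markers (adjusted p = 0.0966), 1 of which is the exercised w1118 pool with 103 CPM, and in 4 of the 8 fits that left out 1 library. Midgut markers were 1003 to 8068 CPM in exercised Hsp70- and 63.6 to 256 CPM in exercised w1118, without overlap. With that sum as a covariate none of the 3 strain calls among exercised flies passed (edgeR adjusted p = 0.0892 for PGRP-SA, 0.126 for PGRP-SD and 0.0571 for PGRP-LC). Strain and midgut sum move together in these groups, so that fit can hardly separate them, and no conclusion is drawn from the lost calls. In unexercised legs PGRP-SA and PGRP-SD were not called between strains at any age, with log2 fold changes from -0.39 to 0.41 and from -0.84 to 0.32. At day 7 without exercise they were -0.34 and -0.71, in the same direction as after exercise. The exercise response was not shown to differ between strains (edgeR interaction, adjusted p = 0.495 for PGRP-SA and 0.808 for PGRP-SD).

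PGRP-LE, the receptor of peptidoglycan fragments inside cells (X, 15801153 to 15803880, minus strand), was the least variable of the genes and was not called between strains in any of the 5 comparisons. Its pools separated by strain only at day 47, with 20.1, 18.7, 20.7 and 20.2 CPM in Hsp70- and 23.3, 21.0, 21.4 and 23.1 CPM in w1118. That log2 difference of -0.16 (SE 0.10) had an edgeR adjusted p of 0.302.

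With age, the calls fell at different intervals in the strains. In Hsp70- flies, day 23 against day 7 gave 4 of the 10 genes higher and 0 lower (17.3% of features called, 7.37% higher), and day 47 against day 23 gave 0 (3.60% of features called). In w1118 flies, day 23 against day 7 gave 0 calls (11.1% of features called), and day 47 against day 23 gave 3 genes higher and 0 lower (13.4% of features called, 6.07% higher). Where edgeR called 0 genes, unadjusted p-values under 0.05 were counted. In Hsp70- from day 23 to day 47 there were 5 genes, all lower, beside 15.8% of all features. In w1118 from day 7 to day 23 there was 1 gene, beside 25.9% of all features. DESeq2 called 0 in both. Over the whole span, day 47 against day 7 gave 1 higher and 1 lower in Hsp70- (28.9% of features called) and 4 higher and 1 lower in w1118 (37.6% of features called). The consecutive comparisons share the day 23 pools, which also enter the strain comparison at day 23.

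The 4 genes called in Hsp70- at day 23 over day 7 were PGRP-SA, PGRP-SD, PGRP-SB1 and PGRP-LB. PGRP-SA had 17.0, 14.4, 25.8 and 27.0 CPM at day 23 and 10.6, 8.44, 11.3 and 12.8 CPM at day 7, without overlap (log2 fold change 0.97, SE 0.21, edgeR adjusted p = 0.00235). PGRP-SD had 161, 83.3, 156 and 150.3 CPM at day 23 and 37.1, 24.5, 64.1 and 98.1 CPM at day 7. Its pools overlapped through 1 pool of each age (log2 fold change 1.30, SE 0.36, adjusted p = 0.0157). PGRP-SB1 pools, given above, did not overlap (1.93, SE 0.56, adjusted p = 0.0212), and those of PGRP-LB touched, with 34.4 CPM in the lowest pool at day 23 and 34.7 CPM in the highest at day 7 (0.83, SE 0.26, adjusted p = 0.0292). Without the 3 libraries that had testis markers, 1 of which is a day 7 Hsp70- pool, only PGRP-SA of these 4 was called, and when these 2 groups were fitted alone none was, although all log2 fold changes stayed positive. With the log midgut sum as a covariate PGRP-SB1 (adjusted p = 0.0557) and PGRP-LB (adjusted p = 0.116) were not called, and PGRP-SA and PGRP-SD were. Leaving out 1 library lost PGRP-SB1 in 3 of 8 fits (day 7 pools 1 and 2, day 23 pool 4) and PGRP-LB in 4 of 8 (day 7 pools 2 and 4, day 23 pools 3 and 4).

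In w1118 flies the genes called at day 47 over day 23 were PGRP-LB, pirk and PGRP-LE. PGRP-LB pools, given above, did not overlap (log2 fold change 1.17, SE 0.26, edgeR adjusted p = 0.00194), and this call held in every alternative tried. pirk had 36.0, 50.8, 38.7 and 81.3 CPM at day 47 and 23.4, 19.6, 29.9 and 32.9 CPM at day 23, without overlap (0.97, SE 0.33, adjusted p = 0.0454). PGRP-LE had 23.3, 21.0, 21.4 and 23.1 CPM at day 47 and 18.2, 18.2, 18.6 and 16.8 CPM at day 23, also without overlap (0.31, SE 0.10, adjusted p = 0.0316). The calls of pirk and PGRP-LE were each lost in 5 of the 8 fits that left out 1 library (day 23 pools 1, 2 and 3 and day 47 pools 2 and 4 for pirk; day 23 pools 1, 2 and 4 and day 47 pools 1 and 4 for PGRP-LE). Against day 7, the day 47 pools of w1118 were called higher for PGRP-LB (1.02, adjusted p = 0.00218), pirk (1.36, adjusted p = 0.00152), PGRP-LE (0.30, adjusted p = 0.0178) and PGRP-SA (0.54, adjusted p = 0.0389). The PGRP-SA call was lost without day 7 pool 1, 2 or 4 or day 47 pool 2, with a log2 fold change of 0.34 (adjusted p = 0.222) without that day 47 pool, and the PGRP-LE call without day 7 pool 3 or day 47 pool 1.

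Midgut markers moved with age too. In Hsp70- legs their sum was 217 to 2047 CPM at day 7, then 897 to 10655 CPM at day 23, then 3136 to 10840 CPM at day 47. In w1118 legs the sums for the same ages were 106 to 1753 CPM, 412 to 6117 CPM and 2173 to 27820 CPM. With the log midgut sum as a covariate, 1 gene in place of 5 was called in w1118 at day 47 over day 7, PGRP-SC1a, while PGRP-LB (adjusted p = 0.193), pirk (0.151), PGRP-LE (0.887) and PGRP-SA (0.0682) were not. At day 47 over day 23 in w1118, PGRP-LB remained called under that covariate, while PGRP-LE (log2 fold change 0.18, adjusted p = 0.271) and pirk (0.75, adjusted p = 0.206) were not. PGRP-LE, also called in Hsp70- at day 47 over day 7 (log2 fold change 0.26, SE 0.10, adjusted p = 0.0437), was not called there under it (adjusted p = 0.434), and it lost that call in 6 of the 8 fits that left out 1 library (day 7 pools 2, 3 and 4, day 47 pools 1, 3 and 4). Muscle markers moved with age as well: in Hsp70- legs 7 of 10 were called lower and 1 higher at day 23 over day 7 and again at day 47 over day 7, and in w1118 legs 9 of 10 were called lower and 0 higher at day 47 over day 7 (median log2 fold change -1.12) and 3 lower and 0 higher at day 47 over day 23. Their part in the age differences was not tested.

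**Figure D4:**
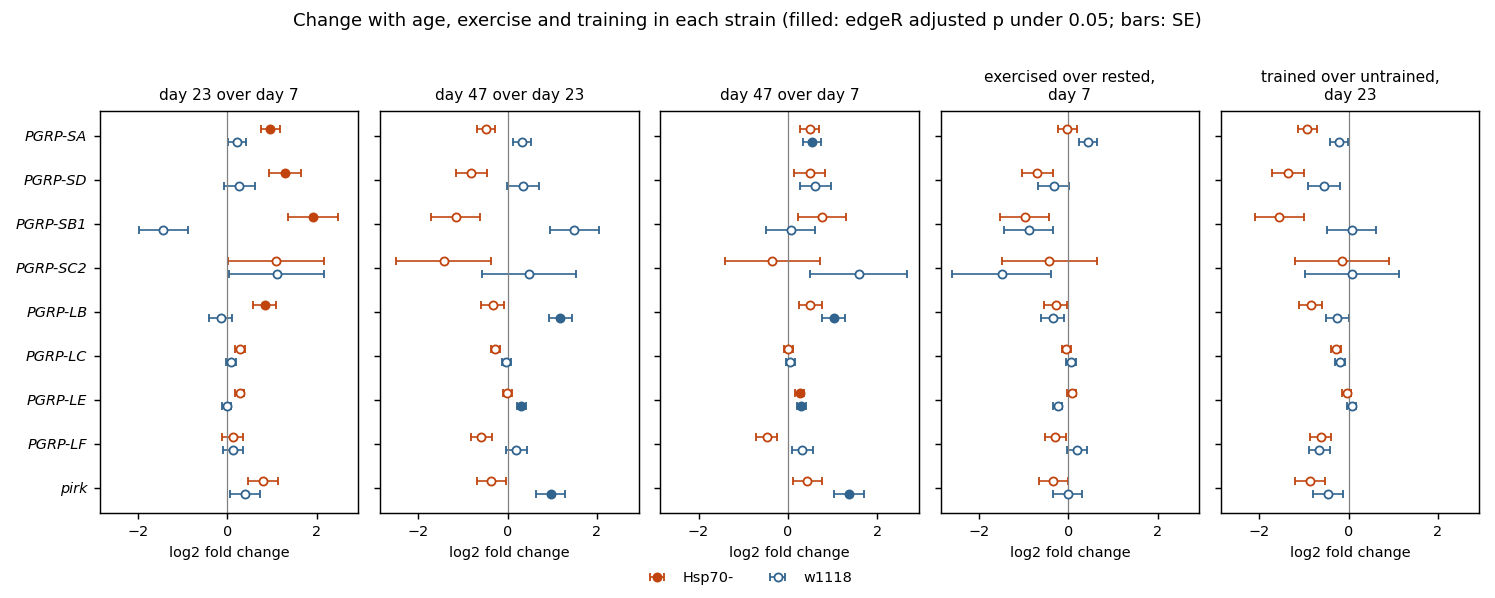
Log2 fold change with its SE (horizontal axis, 1 scale for all panels) of later over earlier age, exercised over rested and trained over untrained legs in Hsp70- (orange, upper of each pair) and w1118 (blue, lower). Filled points have an edgeR adjusted p under 0.05. Filled points of Hsp70- lie in the day 23 over day 7 panel (PGRP-SA, PGRP-SD, PGRP-SB1, PGRP-LB) and the day 47 over day 7 panel (PGRP-LE), and those of w1118 in the panels with day 47.

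Whether the age change differs between strains was tested as an interaction (the Hsp70- change minus the w1118 change). No gene passed edgeR's adjusted threshold. From day 7 to day 23 edgeR called 0.232% of features. There, 6 of the 10 genes had an unadjusted p under 0.05, 5 positive and 1 negative, beside 18.4% of all features. PGRP-SB1 came closest to a call, with 3.36 (SE 0.78, edgeR adjusted p = 0.0579). DESeq2 called PGRP-SB1 alone there (adjusted p = 0.00359). From day 23 to day 47, a comparison added after the data were seen (0.178% of features called), 7 of the 10 had an unadjusted p under 0.05, all negative, and PGRP-LB came closest, with -1.51 (SE 0.36, adjusted p = 0.071). DESeq2 called 3 there, PGRP-LB, PGRP-SB1 and PGRP-SC1a, the last with 0 counts in all 4 w1118 pools at day 47. The share of all features called by DESeq2 is not given here for either interaction. From day 7 to day 47 (1.64% of features called), 1 gene had an unadjusted p under 0.05, beside 19.6% of all features, and DESeq2 called 0. The calls at different ages in the strains are thus not shown by edgeR to differ between strains.

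Exercise and training were compared with rested and untrained flies of the same strain. After 2 h of exercise 0 of the 10 genes were called by edgeR in Hsp70- (0.0464% of features called) and 0 in w1118 (0.402% of features called), and DESeq2 called 0 in each. At an unadjusted p under 0.05 there was 1 gene in Hsp70- (15.3% of all features) and 2 in w1118 (16.5% of all features). The log2 fold changes of the 9 genes other than PGRP-SC1a ran from -0.97 to 0.08 in Hsp70- and from -1.49 to 0.45 in w1118.

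After training, 0 genes were called by edgeR in Hsp70- (0.0464% of features called) and 0 in w1118 (0% of features called). In Hsp70-, 7 of the 10 had an unadjusted p under 0.05, all lower in trained legs, beside 5.26% of all features. In w1118 1 had, beside 6.47% of all features. The untrained Hsp70- pools at day 23 also enter the strain, age and interaction comparisons above, so these are not independent results. Members also moved together over the libraries (rho 0.78 for PGRP-SA with PGRP-SD and 0.82 for PGRP-LB with pirk). The 7 genes are therefore not separate observations. PGRP-SA had 9.22, 7.83, 14.2 and 13.1 CPM in trained Hsp70- legs and 17.0, 14.4, 25.8 and 27.0 CPM in untrained Hsp70- legs. PGRP-SD had 36.7, 24.4, 72.6 and 81.7 CPM in trained and 161, 83.3, 156 and 150.3 CPM in untrained Hsp70- legs. For both genes, and for PGRP-SB1, no trained pool reached the lowest untrained pool. The log2 fold changes were -0.92 (SE 0.21, edgeR adjusted p = 0.119), -1.35 (SE 0.36, adjusted p = 0.224) and -1.55 (SE 0.55, adjusted p = 0.44) for PGRP-SA, PGRP-SD and PGRP-SB1. DESeq2 called 2 of them lower, PGRP-SA (adjusted p = 0.00242) and PGRP-SD (adjusted p = 0.0129), and 0 genes in w1118. The share of all features called by DESeq2 is not given here, so these 2 calls are not read as a result about the set. Midgut markers summed to 1622 to 14319 CPM in trained and 897 to 10655 CPM in untrained Hsp70- legs, and with the log midgut sum as a covariate 0 genes were called. The difference of the training response between strains was called for 0 genes by edgeR (0% of features called) and 0 by DESeq2. At an unadjusted p under 0.05 it gave 2 genes, beside 3.59% of all features. The difference of the exercise response was likewise called for 0 genes by each (8.27% of features called by edgeR). At an unadjusted p under 0.05 it gave 1 gene, beside 15.9% of all features.

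PGRP-SC2 and PGRP-SC1a, secreted amidases known from the gut, varied widely within groups. They lie on 2R at 8716950 to 8717695 and 8709733 to 8710320, both on the plus strand, with the near-identical copy PGRP-SC1b between them, so reads of PGRP-SC1a and PGRP-SC1b may be split in ways that were not given. PGRP-SC2 had 26.2, 71.6, 73.2 and 159 CPM in Hsp70- and 64.8, 0.980, 76.2 and 3.48 CPM in w1118 at day 23. Spread of this size within groups was seen throughout, and PGRP-SC2 was called in no comparison. Its rho with the midgut marker sum over 40 libraries was 0.66. PGRP-LE had the highest rho with that sum, 0.78, followed by PGRP-SC2, PGRP-LB with 0.54 and pirk with 0.52. PGRP-SC1a (-0.0001), PGRP-SA (0.0015) and PGRP-LC (0.18) had lower ones. Libraries of a group share strain, age and depth in these values.

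PGRP-SC1a reads came from a few pools. At day 7 its counts were 690, 0, 3 and 0 in Hsp70- and 0, 137, 0 and 0 in w1118. At day 23 they were 0, 2, 0 and 7 in Hsp70- and 209, 0, 76 and 0 in w1118, and at day 47 they were 2, 1, 0 and 0 in Hsp70- and 0 in all 4 w1118 pools. Trained legs had 0, 21, 50 and 0 counts in Hsp70- and 11, 14, 4 and 247 in w1118, and exercised legs had 1, 12, 0 and 0 in Hsp70- and 4, 2, 1 and 0 in w1118. edgeR called the gene lower at day 47 than at day 7 in Hsp70- (adjusted p = 0.0298) and w1118 (adjusted p = 0.0307), and each call rests on 1 day 7 pool, without which it was lost in Hsp70- (adjusted p = 0.768) or left all pools at 0 in w1118. No fold change is given for it. PGRP-SC1b had its highest count, 391, in the same Hsp70- pool as PGRP-SC1a. The 4 w1118 pools at day 47, with 0 counts of PGRP-SC1a, had midgut sums of 23025, 2173, 13221 and 27820 CPM.

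**Figure D5:**
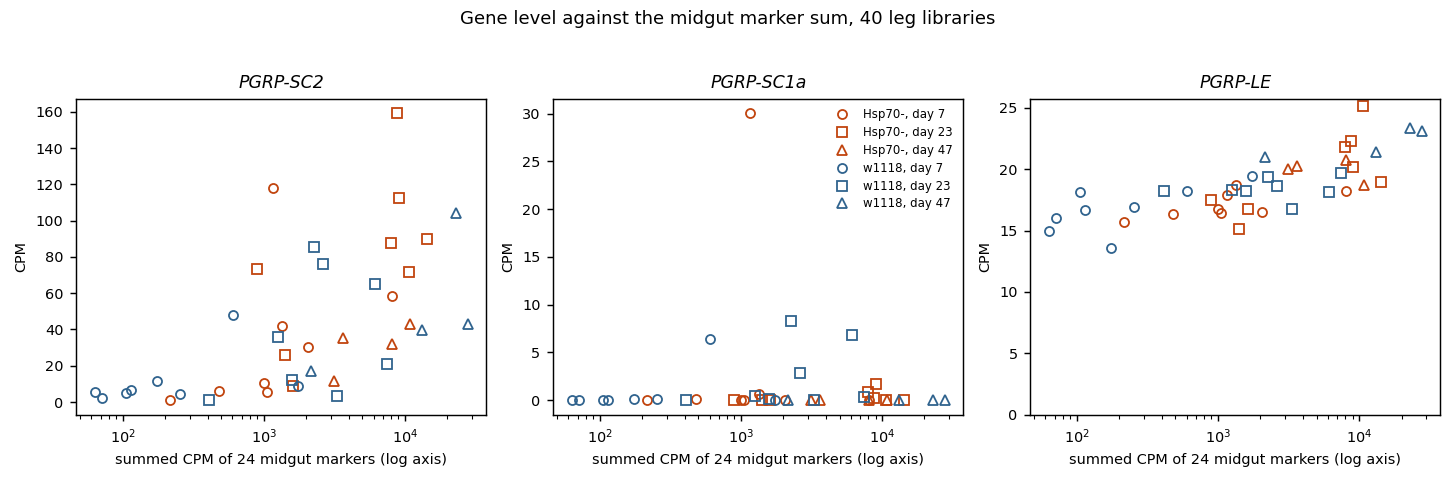
Level in CPM (vertical axes, linear) of PGRP-SC2, PGRP-SC1a and PGRP-LE against the summed CPM of 24 midgut markers (horizontal axes, logarithmic) in 40 libraries, coloured by strain and shaped by age; exercised and trained pools are shown with their age. PGRP-SC2 and PGRP-LE are higher in libraries with larger sums (rho 0.66 and 0.78), while PGRP-SC1a is near 0 in most libraries at any sum.

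The genes whose levels were most like those of each member over the 40 libraries were found by Spearman's rho, as a description. PGRP-SB1 was most like AttC (0.94) and DptB (0.94), which encode the antibacterial peptides Attacin-C and Diptericin B. pirk was most like Rel (0.85), Listericin (0.82) and Def (0.80), and Rel was also second for PGRP-LB (0.79), after Mvl (0.82). PGRP-SD was most like CG4757 (0.78), AttB (0.75) and Dro (0.75), and PGRP-SA was most like CG4757 (0.74) and Hayan (0.74). PGRP-LC was most like CG1307 (0.92), Tep4 (0.88) and PGRP-LA (0.87). PGRP-SC1a and PGRP-SC2 each had a Jonah protease first, Jon65Ai (0.89) and Jon25Biii (0.82), and PGRP-LE had nub first (0.87). Both Jonah genes are among the 24 midgut markers. PGRP-SC1a, at 0 counts in 20 of the 40 libraries, had a rho of only -0.0001 with the sum of those markers. PGRP-LF had no gene above 0.70. Among the members themselves, the highest pairs were PGRP-LB with pirk (0.82), PGRP-SA with PGRP-SD (0.78) and PGRP-SD with PGRP-SB1 (0.75).

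Genes listed for the IMD pathway were counted by strain, to be read against the background shares given above. Of 11 antimicrobial peptide genes listed as IMD targets, some of them near-identical copies whose reads may be split, 8 were called higher and 0 lower in Hsp70- at day 23 by edgeR, with a median log2 fold change of 4.10 over the list. At day 7 0 were called higher and 3 lower (median -2.01), and at day 47 0 higher and 1 lower (median -0.56). Of 13 intracellular IMD components, 2 were called higher and 0 lower at day 23, Rel (0.53, SE 0.11, edgeR adjusted p = 0.000778) and the caspase Dredd (0.31, SE 0.08, adjusted p = 0.0041). Of 9 other negative regulators of IMD, 3 were called higher and 0 lower at day 23, led by Charon (0.52) and casp (0.38). At day 47, 1 component was called higher and 2 lower, and 2 negative regulators higher and 0 lower. Among trained flies, 4 targets were called higher and 0 lower (median 2.24). Of the other lists there, 2 components were called higher and 1 lower, and 3 negative regulators higher and 1 lower. Among exercised flies, 0 targets were called higher and 5 lower (median -3.17). There, 1 component was called higher and 2 lower, and 2 negative regulators higher and 0 lower.

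The IMD targets were also counted over age. In Hsp70-, 7 of the 11 IMD targets were called higher and 0 lower at day 23 over day 7 (median 3.23) and 0 at day 47 over day 23 (median -1.66). In w1118, 0 were called higher and 4 lower at day 23 over day 7 (median -3.35), and 5 higher and 0 lower at day 47 over day 23 (median 3.41). The median over all features was between -0.01 and 0.04 in these 4 comparisons. Rel was called higher in 2 of these comparisons, by 0.57 (SE 0.11, edgeR adjusted p = 0.00102) in Hsp70- at day 23 over day 7 and by 0.58 (SE 0.11, adjusted p = 0.000525) in w1118 at day 47 over day 23. After training, 0 of the 11 targets were called in Hsp70- (median -1.79, against 0.02 over all features).

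On the Toll side, every strain call among the pathway genes at day 23 was lower in Hsp70-, and PGRP-SA and PGRP-SD were not called there. Of 16 Toll pathway genes, 0 were called higher and 5 lower in Hsp70- at day 23, beside a background share of 9% for lower calls. These 5 were led by the recognition protein GNBP3 (-0.72, SE 0.11, edgeR adjusted p = 1.36e-05) and the protease modSP (-0.57, SE 0.13, adjusted p = 0.00146). Lower calls were not limited to that age. At day 7, 1 pathway gene was called higher and 5 lower, and at day 47, 1 higher and 3 lower. Among exercised flies the counts were 1 higher and 4 lower, and among trained flies 0 higher and 6 lower. Of 12 Toll targets, 9 were called higher and 1 lower at day 23 (median 1.54). Drs, which encodes the antifungal peptide Drosomycin, averaged 857 ± 338 CPM in Hsp70- and 67.3 ± 14.9 CPM in w1118 at that age (SD, n = 4 each). In Hsp70-, Drs was the only Toll target called after training, lower in trained legs by a log2 fold change of -2.43 (SE 0.48, edgeR adjusted p = 0.0384).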

How the data were processed

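The authors deposited 1 table of whole-number read counts, not normalized, for 23932 features in 40 libraries of polyadenylated RNA; per the labels' protocols the library kit was strand-specific. The submitters' processing notes name HISAT2 2.1.0, kallisto 0.44.0 and BDGP6 without their roles; the annotation, the strand setting and the handling of multiply mapping reads were not given in the sources used here. Columns were matched to samples by title. Coordinates and exon lengths are those of Ensembl BDGP6.54, release 115 (23851 features matched by identifier).

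Differences were tested with edgeR 4.0.16 (R 4.3.3; quasi-likelihood F test) in 1 fit of 40 libraries with a mean for each of 10 groups (30 residual degrees of freedom), TMM scaling and edgeR's filter on expression by group, which kept 12939 features and all 10 genes. Benjamini-Hochberg adjustment was made separately for each of 20 comparisons, and an adjusted p under 0.05 is a call. SE is the absolute log2 fold change over the square root of F. CPM are relative to the scaled library size, and marker sums to total counts. Replicates of a group differed by a chi-square per degree of freedom of 25.2 to 345 in all 60 pairs, so none looked like a repeat of another. The named genes are the members, the 3 features with the highest Spearman's rho to each, and, of each listed pathway, at most the 2 called with the largest change; Drs at day 23 was added after its values were seen. The members and lists were chosen with earlier results of these data known. Alternatives were RLE scaling, DESeq2 1.42.0, no low-count filter, a minimum of 10 counts per library, the compared groups alone, a replicate block and leaving out each library; without the 3 libraries with testis markers, a midgut covariate and 1 interaction were added after the data were seen. Sequences were not used here.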

Additional observations from a re-analysis of the deposited data

Results flagged for a closer look

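In 12 of 98 groups of 4 pools examined, the highest or lowest pool lay far from the other 3 by Dixon's test at its 95% critical value; chance flags about 1 in 20 groups. Values are CPM. PGRP-SA had 18.0 in trained w1118 pool 3, with at most 12.4 in the other pools, and 27.3 in w1118 pool 2 at day 47, with at most 18.1 in the others. PGRP-SD had 103 in exercised w1118 pool 1, with at most 64.5 in the others, and a low 83.3 in untrained Hsp70- pool 2 at day 23, with at least 150.3 in the others. PGRP-SB1 had a low 20.8 in exercised Hsp70- pool 1, with at least 43.8 in the others, 96.2 in trained w1118 pool 3, with at most 44.9 in the others, and 264 in Hsp70- pool 4 at day 47, with at most 95.95 in the others. PGRP-SC1a had 30.1 in Hsp70- pool 1 at day 7, 6.36 in w1118 pool 2 at day 7, 0.661 in exercised Hsp70- pool 2 and 8.33 in trained w1118 pool 4, with at most 0.457 in the other pools of these groups. PGRP-SC2 had 47.9 in the same w1118 pool 2 at day 7, with at most 8.56 in the others.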

How the results depend on the processing

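The 23 calls of a gene in a comparison were recomputed under alternatives; of 363 values, 295 kept call and direction, 68 kept only the direction and 0 reversed. Counts of members called moved by over 1.5 times as follows; smaller moves are not listed. DESeq2 gave 2 for strain at day 47, 5 for w1118 day 47 over 23, 2 for training in Hsp70-, and 1 and 3 for the interactions of strain with age from day 7 to 23 and from day 23 to 47. PGRP-SC1a was among these calls for strain at day 47, w1118 day 47 over 23 and the later interaction. Its 4 w1118 pools at day 47 all had 0 counts. A replicate block gave 2 for strain at day 47, and 1 each for training in Hsp70- (PGRP-SA) and for those 2 interactions; equal replicate numbers did not pair the pools (0 of 15 comparisons with every correlation over 0.1, range -0.33 to 0.58, and 22 of 60 libraries closest to their own number). The compared groups alone gave 1 for w1118 day 23 over 7 and 0 for Hsp70- day 23 over 7. RLE factors and at least 10 counts in every library gave 1 each for Hsp70- day 47 over 7, and that filter gave 1 for the interaction from day 23 to 47. Without the 3 libraries with testis markers the counts were 5 for w1118 day 47 over 23, 1 for Hsp70- day 23 over 7 and 1 for Hsp70- day 47 over 7. The midgut covariate gave 0 for strain in exercised legs, 1 for w1118 day 47 over 7 and 1 for Hsp70- day 47 over 7. The cause was not tested, except that fewer groups or libraries enter 2 of these settings. Leaving out each library in turn gave, for strain, 1 to 2 at day 7, 3 to 4 at day 23, 1 to 2 at day 47, 2 to 3 with exercise and 1 to 1 with training; for age, 1 to 3 (w1118 day 47 over 23), 3 to 4 (w1118 day 47 over 7), 1 to 5 (Hsp70- day 23 over 7) and 0 to 1 (Hsp70- day 47 over 7); 0 to 1 for the interactions from day 7 to 23 and from day 23 to 47; and 0 to 0 elsewhere. Comparisons of PGRP-SC1a are limited by low counts, with 3 counts or fewer in 27 libraries. These include all libraries of day 47, which were the deepest, and the reason was not tested.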
